A study of Mus musculus with 15 samples.

Results

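The glucocorticoid receptor and 8 genes that work with it or respond to it were followed in mouse liver 1 day after a single injection of saline, cisplatin or doxorubicin. The 9 genes were chosen by symbol from the 21878 genes of the expression table: the receptor Nr3c1, the hormone-activating enzyme Hsd11b1, the feedback gene Fkbp5, and the target genes Tsc22d3, Sgk1, Errfi1, Zbtb16, Klf9 and Dusp1. All 9 were in the table, and all 9 passed the filter on low values as did 10552 genes in all. All mice were 8-week-old males of the C57BL/6J strain, and each injection was intraperitoneal. Cisplatin (a platinum compound that crosslinks DNA) was given at 10 mg/kg from a solution of 1 mg/mL in saline. Doxorubicin (an anthracycline that poisons topoisomerase II) was given at 10 mg/kg from a solution of 2 mg/mL in sterile water, so the vehicle differs from that of the other groups. Each group held 5 libraries, 1 per mouse, called saline 1 to 5, cisplatin 1 to 5, doxorubicin 1 to 4 and the unnumbered doxorubicin library, whose column number matches no doxorubicin label. The labels do not give the injected saline volume, the food intake or the hour of sampling, and differences in these cannot be told apart from the drugs.

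Glucocorticoids are adrenal steroids that enter cells and bind the receptor, which is held ready by the chaperone Hsp90 and its helpers. The bound receptor moves to the nucleus, where it binds short palindromes in DNA and raises genes of glucose production, amino acid breakdown and feedback control, and holds down many inflammatory genes. In liver the hormone is a fasting and stress signal, its blood level follows the time of day, and hepatocytes regenerate active hormone from its inert form through Hsd11b1.

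The values are FPKM, read counts divided by the length of the gene and the size of the library. Reads assigned to genes numbered 27.6 to 34.7 M (megareads) in the saline libraries, 25.3 to 31.0 M after cisplatin and 37.6 to 50.7 M after doxorubicin, so that depth and doxorubicin cannot be told apart. By read counts that rest on inferred gene lengths, the least read member in any library was Dusp1 with 284 reads and the most read was Errfi1 with 55759. All 10 hepatocyte markers were tested, and their summed level was 58429 to 65892 FPKM in saline livers, 60129 to 65402 in cisplatin livers and 48926 to 59603 in doxorubicin livers. Since the tissue was sequenced in bulk, fewer cells of a type and less RNA per cell cannot be told apart for any gene below. No library stood apart in all members: saline 1 was the lowest of its group in 5 of 9, the unnumbered doxorubicin library was the lowest in 5 and the highest in 2, and doxorubicin 4 was the highest in 5.

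After either drug no member was higher than after saline, at an adjusted or an unadjusted p under 0.05 in limma, and a minority was lower. Differences are of mean log2(FPKM + 1), tested with limma in 1 fit of the 3 groups and adjusted by the Benjamini-Hochberg method over all 10552 tested genes, and a gene was called at an adjusted p under 0.05. After cisplatin 2 of 9 members were lower, Tsc22d3 and Errfi1, where 5% of all tested genes were lower and 11.1% were called in either direction. After doxorubicin 3 of 9 were lower, Tsc22d3, Errfi1 and Hsd11b1, where 17.2% of all tested genes were lower and 31.6% were called. Hsd11b1 was the single member that differed between the drugs, where 20.4% of tested genes were called. The median difference over the 9 members was -0.28 after cisplatin and -0.50 after doxorubicin, beside -0.01 and -0.04 over all tested genes. In each comparison the called members were those whose groups did not overlap, which held for 9.71%, 22% and 16.3% of all tested genes. Both drug groups were compared with the same saline libraries, so the comparisons are not independent.

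**Figure D1:**
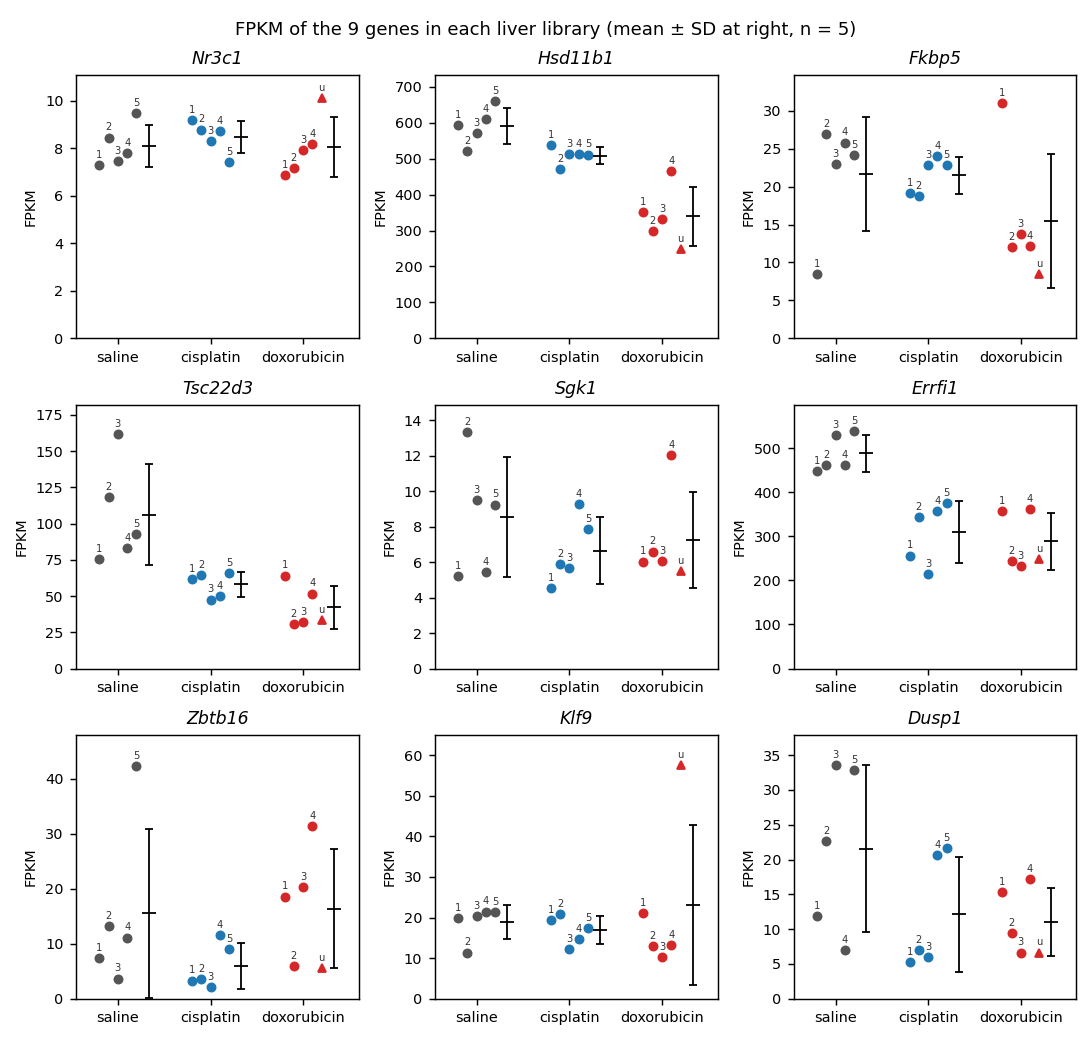
FPKM of the 9 genes in each library (points, numbered by replicate; the triangle marked u is the unnumbered doxorubicin library), with the mean and SD of each group of 5 at its right. Tsc22d3 and Errfi1 lay lower in all 10 drug libraries than in every saline library, while Nr3c1 lay between 6.87 and 10.1 FPKM in all groups.

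**Figure D2:**
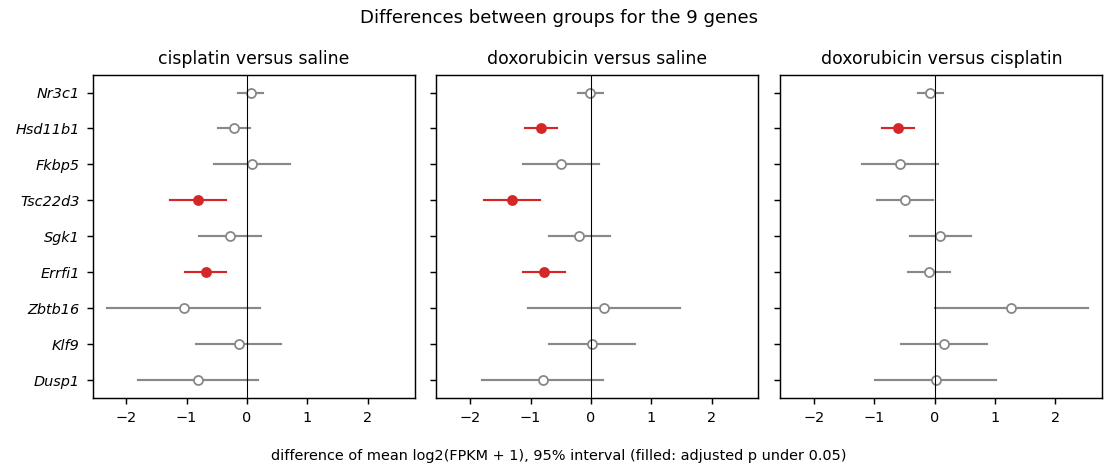
Differences of mean log2(FPKM + 1) between groups for the 9 genes, with 95% intervals; filled points passed an adjusted p of 0.05 in limma. The interval of Nr3c1 is the narrowest and includes 0 in each comparison, and that of Zbtb16 is the widest.

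The receptor gene itself kept a narrow range of levels. Nr3c1 (chromosome 18, 39410545 to 39519421, minus strand, GRCm38) was 7.28, 8.44, 7.45, 7.80 and 9.45 FPKM in saline 1 to 5. It was 9.18, 8.78, 8.29, 8.72 and 7.42 FPKM in cisplatin 1 to 5, and 6.87, 7.14, 7.92, 8.17 and 10.1 FPKM in doxorubicin 1 to 4 and the unnumbered library. The 3 groups overlapped throughout, with means of 8.09 ± 0.883, 8.48 ± 0.670 and 8.04 ± 1.27 FPKM (SD, n = 5 each). The difference from saline was 0.06 on the log2 scale after cisplatin (95% interval -0.15 to 0.27, adjusted p = 0.742) and -0.01 after doxorubicin (-0.22 to 0.20, adjusted p = 0.936). The drugs differed by -0.08 (-0.28 to 0.13, adjusted p = 0.647). These intervals bound what 5 libraries a group could detect and do not show equal levels.

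Partners of the receptor protein were followed in a list of 15 genes of chaperones, co-chaperones, coactivators, corepressors and the related mineralocorticoid receptor, all of which were tested. After cisplatin 2 of the 15 rose and after doxorubicin 4 rose, while 0 fell after either drug (0 also at an unadjusted limma p under 0.05), beside 6.08% and 14.4% of all tested genes called higher. The list medians were -0.03 and -0.09. The genes that rose were all of the Hsp90 system. Stip1, the scaffold that passes clients from Hsp70 to Hsp90, averaged 23.6 ± 4.05 FPKM in saline livers, 34.9 ± 6.91 in cisplatin livers and 40.4 ± 3.95 in doxorubicin livers, a rise of 0.54 ± 0.13 (SE, adjusted p = 0.0136) and of 0.76 ± 0.13 (adjusted p = 0.000323). Fkbp4, the co-chaperone that favours hormone binding and competes with Fkbp5, rose by 0.55 ± 0.11 after cisplatin (adjusted p = 0.00489) and by 0.42 ± 0.11 after doxorubicin (adjusted p = 0.00917). Hsp90aa1, the inducible Hsp90, rose by 1.25 ± 0.31 after doxorubicin (adjusted p = 0.00515), with saline livers between 23.4 and 48.7 FPKM and doxorubicin livers between 48.0 and 183 FPKM. Hsp90ab1, the constitutive Hsp90, rose by 0.29 ± 0.10 after doxorubicin (adjusted p = 0.0405), a call that held in 12 of 24 alternative settings (adjusted p up to 0.191). It was lost without any of saline 1, 3, 4 and 5, doxorubicin 1 and 2 or the unnumbered library (adjusted p up to 0.0956). Without the unnumbered doxorubicin library, which changes the shared estimate of spread, 4 of the 15 genes were called higher after cisplatin. With all libraries, the coactivators Ncoa1, Ncoa2, Ncoa3, Crebbp and Ep300 and the corepressor Ncor1 did not pass the test in any comparison. Over the alternative settings up to 2 of the 15 genes were called lower after doxorubicin than after saline, and up to 1 lower than after cisplatin.

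Hsd11b1, the enzyme that regenerates active hormone inside hepatocytes, was lower after doxorubicin than in both other groups. Hsd11b1 (chromosome 1, 193221634 to 193264075, minus strand) was 593, 522, 571, 610.02 and 659 FPKM in saline 1 to 5, and 538, 470.5, 512, 512 and 511 FPKM in cisplatin 1 to 5. It was 352, 298, 331, 466 and 249 FPKM in doxorubicin 1 to 4 and the unnumbered library. Every doxorubicin value lay below every value of the other groups, and the highest, doxorubicin 4, lay just under the lowest cisplatin value. The level fell by 0.83 on the log2 scale relative to saline (interval -1.10 to -0.56, adjusted p = 0.000136), the saline mean being 1.74 times the doxorubicin mean. It was 0.61 lower than after cisplatin (interval -0.88 to -0.34, adjusted p = 0.00271), the cisplatin mean being 1.499 times the doxorubicin mean. After cisplatin the difference from saline was -0.21 (-0.48 to 0.06, adjusted p = 0.321), and these groups overlapped. The order of the means was thus saline, cisplatin, doxorubicin, and the first pair did not differ beyond its spread. Among hepatocyte markers 3 of 10 fell after doxorubicin (5 without saline 2), beside 17.2% of all tested genes. Hnf4a fell by 0.50, Pck1 by 0.71 and Tat by 0.87, and their part in the fall of Hsd11b1 was not tested. Pck1 and Tat are also in the wider list of induced genes below.

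Other genes that carry or clear corticosteroids fell with Hsd11b1 after doxorubicin. In a list of 5, Serpina6, Srd5a1 and Akr1d1 were lower after doxorubicin than after saline and than after cisplatin, beside 17.2% and 11.4% of all tested genes. H6pd did not pass the test, and Hsd11b2, the hormone-inactivating enzyme of kidney, was too low to test, at no more than 0.0431 FPKM in any library. Serpina6, which encodes the corticosteroid-binding globulin of blood, was 108 to 190 FPKM in saline livers, 106 to 158 in cisplatin livers and 42.8 to 98.6 in doxorubicin livers. The doxorubicin values lay below all others, with a fall of 0.82 ± 0.20 from saline (adjusted p = 0.00561). Akr1d1, a reductase that inactivates steroids and also serves bile acid synthesis, moved in opposite directions: it rose by 0.53 ± 0.13 after cisplatin (adjusted p = 0.0131) and fell by 0.48 ± 0.13 after doxorubicin (adjusted p = 0.00904), with a difference of -1.005 ± 0.13 between doxorubicin and cisplatin (adjusted p = 4.59e-05). Srd5a1, a second steroid reductase, fell by 0.74 ± 0.20 after doxorubicin (adjusted p = 0.01002), and its difference from cisplatin, -0.71 (adjusted p = 0.0190), was lost without cisplatin 2 (adjusted p = 0.0507). H6pd, which supplies the cofactor of Hsd11b1, averaged 92.5 ± 14.03 FPKM in saline livers, 84.1 ± 6.86 in cisplatin livers and 106 ± 14.7 in doxorubicin livers, with a doxorubicin difference of 0.19 (adjusted p = 0.225).

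**Figure D3:**
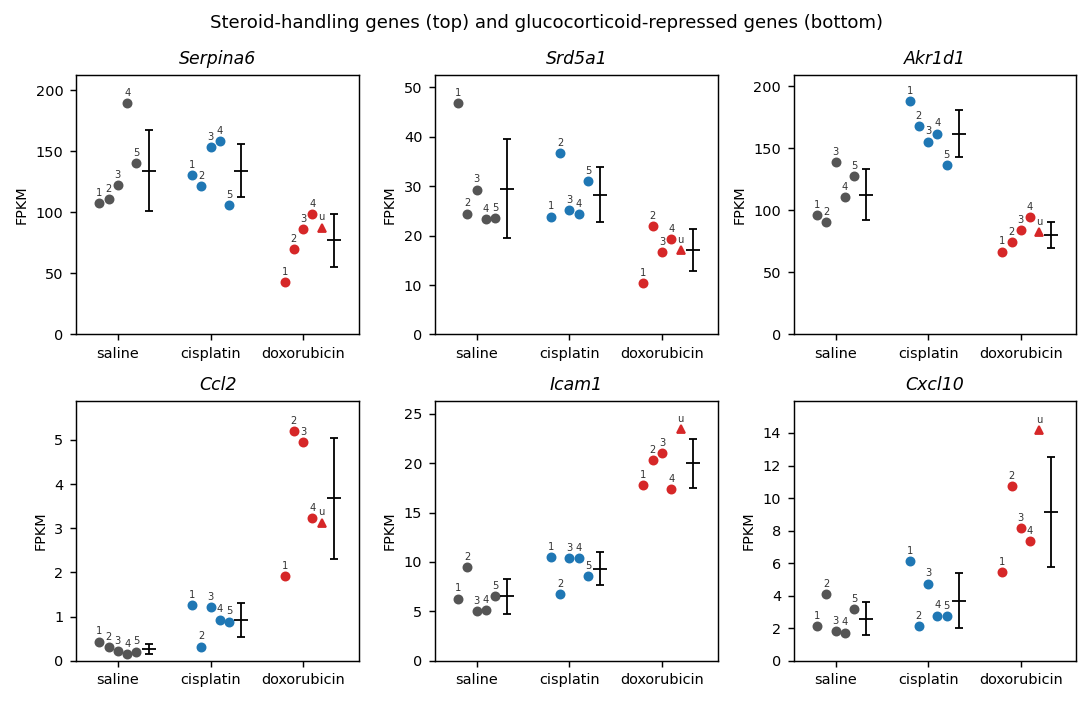
FPKM by library of 3 genes of steroid handling (top) and 3 inflammatory genes that glucocorticoids repress (bottom), drawn as in the plot of the members. Serpina6 and Akr1d1 lay lower and Ccl2 and Icam1 higher in doxorubicin livers than in all others or, for Akr1d1, than in all cisplatin livers.

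The promoters of the target genes are shown first, since the receptor reads its palindrome from DNA and the members differ in whether their start regions hold it. RefSeq windows of 300 bases (250 before to 50 after a start site, build GRCm38.p6) were searched on both strands for the palindrome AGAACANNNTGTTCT, for its looser form GNACANNNTGTNC, for the half-site AGAACA and for TGACGTCA, the full cAMP response element. The half-site lies inside the palindrome, so a palindrome also counts as half-sites. Of 32851 windows in the table, 3 held the palindrome (0.00913%), 156 the looser form (0.475%), 6233 the half-site (19%) and 588 the cAMP element (1.79%). Windows were found and searched for 7 members, 15 windows in all, and Zbtb16 and Nr3c1 were not searched. Sgk1 was the single member that held the palindrome, in 1 of its 6 windows (chr10:21993640-21993939, plus strand, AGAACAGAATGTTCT from 189 to 175 bases before the start), while Tsc22d3 held a half-site on the opposite strand in 1 of its 3 windows (chrX:140600473-140600772, minus strand, 185 to 180 bases before the start). Errfi1 (chr4:150854820-150855119, plus strand, 51 to 44 bases before the start) and Dusp1 (chr17:26508423-26508722, minus strand, 143 to 136 bases before the start) held the cAMP element. The bases just after the start lay in a GENCODE M21 transcript for these windows of Sgk1, Tsc22d3 and Dusp1, but not for Errfi1. The distance for Errfi1 is therefore from the RefSeq start alone. The half-site stands alone in 2 further Sgk1 windows, and once more in the window printed, outside the palindrome and in lower case. The 4 windows are printed along the gene's strand, with the capitals marking the palindrome of Sgk1, the half-site of Tsc22d3 and the cAMP elements of Errfi1 and Dusp1; a match is a description of the letters and no evidence of binding.
Sgk1: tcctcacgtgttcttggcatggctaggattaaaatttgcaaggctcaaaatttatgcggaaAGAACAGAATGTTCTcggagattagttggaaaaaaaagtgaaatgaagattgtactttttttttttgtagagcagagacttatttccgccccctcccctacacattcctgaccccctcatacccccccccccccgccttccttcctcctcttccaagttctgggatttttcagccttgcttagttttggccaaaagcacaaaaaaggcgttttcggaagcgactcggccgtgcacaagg
Tsc22d3: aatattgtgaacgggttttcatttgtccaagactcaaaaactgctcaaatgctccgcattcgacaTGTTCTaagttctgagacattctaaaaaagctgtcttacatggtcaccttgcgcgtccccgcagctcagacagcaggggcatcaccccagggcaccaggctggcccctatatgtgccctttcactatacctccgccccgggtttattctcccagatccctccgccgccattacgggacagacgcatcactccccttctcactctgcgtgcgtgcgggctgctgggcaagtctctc
Errfi1: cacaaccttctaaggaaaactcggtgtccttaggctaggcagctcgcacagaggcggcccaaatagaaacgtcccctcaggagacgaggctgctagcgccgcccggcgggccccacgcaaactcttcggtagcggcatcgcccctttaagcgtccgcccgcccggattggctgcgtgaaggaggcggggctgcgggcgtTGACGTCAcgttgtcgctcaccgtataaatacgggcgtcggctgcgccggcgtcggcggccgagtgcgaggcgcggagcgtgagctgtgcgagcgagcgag
Dusp1: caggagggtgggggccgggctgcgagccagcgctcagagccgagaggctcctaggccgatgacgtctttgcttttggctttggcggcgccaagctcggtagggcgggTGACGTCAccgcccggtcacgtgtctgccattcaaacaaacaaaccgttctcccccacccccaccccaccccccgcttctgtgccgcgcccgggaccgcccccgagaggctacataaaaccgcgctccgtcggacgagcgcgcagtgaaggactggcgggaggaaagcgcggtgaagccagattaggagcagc

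Tsc22d3, which encodes the glucocorticoid-induced leucine zipper that restrains NF-kB and AP-1, was lower after both drugs. Tsc22d3 (chromosome X, 140539528 to 140600659, minus strand) was 75.3, 118.4, 162, 83.0 and 92.7 FPKM in saline 1 to 5. It was 61.8, 64.4, 47.5, 50.1 and 66.1 FPKM in cisplatin 1 to 5, and 64.1, 30.6, 32.1, 51.6 and 33.3 FPKM in doxorubicin 1 to 4 and the unnumbered library. All 10 drug values lay below the lowest saline value, and the drug groups overlapped each other. The saline mean was 2.51 times the doxorubicin mean, a fall of 1.31 on the log2 scale (interval -1.78 to -0.85, adjusted p = 0.000269). It was 1.83 times the cisplatin mean, a difference of -0.82 (interval -1.28 to -0.35, adjusted p = 0.0241). The cisplatin call was lost without saline 3, the highest saline library (-0.65, adjusted p = 0.0572), without cisplatin 3 (-0.75, adjusted p = 0.0690), and without saline 2 and the unnumbered doxorubicin library together (-0.77, adjusted p = 0.0550). The drugs differed by -0.49 (interval -0.96 to -0.03, adjusted p = 0.128), which became -0.66 and passed the test without doxorubicin 1 (adjusted p = 0.0356).

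Errfi1, which encodes a feedback inhibitor of the EGF receptor, was lower after both drugs. Errfi1 (chromosome 4, 150853919 to 150868892, plus strand) was 448, 462, 529, 462 and 538 FPKM in saline 1 to 5, the most abundant target gene among the members per unit of length. It was 256, 343, 215, 357 and 376 FPKM in cisplatin 1 to 5, and 356, 243, 233, 361 and 249 FPKM in doxorubicin 1 to 4 and the unnumbered library. No drug value reached the lowest saline value, and the drug groups overlapped. The level fell by 0.68 after cisplatin (interval -1.03 to -0.34, adjusted p = 0.0126) and by 0.78 after doxorubicin (interval -1.12 to -0.44, adjusted p = 0.00166), and these calls held in all 24 alternative settings. The difference between the drugs was -0.10, with an interval of -0.44 to 0.25 (adjusted p = 0.732).

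Fkbp5, the co-chaperone that lowers the receptor's affinity for hormone and is itself induced by it, did not pass the test in any comparison, and 2 libraries set its spread. Fkbp5 (chromosome 17, 28399094 to 28517527, minus strand) was 8.43, 26.9, 23.0, 25.8 and 24.1 FPKM in saline 1 to 5, and 19.1, 18.7, 22.8, 24.0 and 22.8 FPKM in cisplatin 1 to 5. It was 31.0, 12.01, 13.7, 12.2 and 8.49 FPKM in doxorubicin 1 to 4 and the unnumbered library. Saline 1 lay far below its group and doxorubicin 1 far above, and the other 4 doxorubicin values were below all cisplatin values. The doxorubicin difference from saline was -0.50 (interval -1.13 to 0.14, adjusted p = 0.223). It became -0.79 and passed without saline 1 (adjusted p = 0.0220), and -0.77 and passed without doxorubicin 1 (adjusted p = 0.0328). The difference between the drugs was -0.58 (-1.21 to 0.06, adjusted p = 0.198), and -0.85 without doxorubicin 1 (adjusted p = 0.0281). After cisplatin the difference from saline was 0.08 (-0.55 to 0.71, adjusted p = 0.903).

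Sgk1, a kinase that the hormone induces and that controls ion transport, overlapped in all groups. Whether the palindrome in 1 of its 6 windows has a part in its values was not tested. Sgk1 (chromosome 10, 21882184 to 21999903, plus strand) was 5.20, 13.3, 9.51, 5.43 and 9.25 FPKM in saline 1 to 5. It was 4.55, 5.91, 5.66, 9.28 and 7.85 FPKM in cisplatin 1 to 5, and 6.03, 6.60, 6.06, 12.03 and 5.496 FPKM in doxorubicin 1 to 4 and the unnumbered library. Each group had libraries near 5 FPKM and at least 1 above 9, and the differences from saline were -0.28 after cisplatin (-0.79 to 0.23, adjusted p = 0.505) and -0.19 after doxorubicin (-0.70 to 0.32, adjusted p = 0.583).

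Zbtb16, a zinc finger repressor that the hormone induces in many cell types, had the widest spread between libraries. Zbtb16 (chromosome 9, 48654297 to 48836222, minus strand) was 7.38, 13.2, 3.68, 11.1 and 42.3 FPKM in saline 1 to 5, and 3.32, 3.604, 2.05, 11.6 and 9.05 FPKM in cisplatin 1 to 5. It was 18.6, 6.00, 20.3, 31.4 and 5.64 FPKM in doxorubicin 1 to 4 and the unnumbered library. Within the saline group the highest value was 11.5 times the lowest, while for Nr3c1 it was 1.298 times. The cisplatin mean was the lowest of the 3, but the differences of -1.05 from saline (-2.32 to 0.21, adjusted p = 0.291) and of 1.27 between doxorubicin and cisplatin (0.01 to 2.54, adjusted p = 0.153) did not pass the test. The doxorubicin difference from saline was 0.22 (-1.05 to 1.48, adjusted p = 0.810), and its sign turned when saline 3 or doxorubicin 4 was left out.

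Klf9, a Krüppel-like transcription factor that the hormone induces and that also follows the time of day, had 1 library that decided its doxorubicin mean. Klf9 (chromosome 19, 23141226 to 23168134, plus strand) was 19.9, 11.4, 20.3, 21.5 and 21.3 FPKM in saline 1 to 5, and 19.4, 20.9, 12.3, 14.8 and 17.4 FPKM in cisplatin 1 to 5. It was 21.1, 12.99, 10.3, 13.2 and 57.5 FPKM in doxorubicin 1 to 4 and the unnumbered library. The unnumbered library lay above every other library of the study, and the doxorubicin mean with it was 23.0 ± 19.7 FPKM, beside 18.9 ± 4.24 FPKM for saline. The difference from saline was 0.01 (-0.70 to 0.72, adjusted p = 0.980) with all libraries, and -0.38 without the unnumbered library (adjusted p = 0.189). It was -0.54, past the threshold in the lower direction (adjusted p = 0.0314), when saline 2, the lowest saline value, was left out as well. After cisplatin the difference was -0.14 (-0.85 to 0.57, adjusted p = 0.845). Among 14 tested clock genes 4 were called higher and 1 lower after cisplatin, beside 6.08% and 5% of all tested genes. Per3 rose by 1.54 and Dbp by 2.44, while the calls of Ciart and Per2 (higher) and Nfil3 (lower, -0.64, adjusted p = 0.0243) were lost without saline 1, saline 4 or cisplatin 4. The call of Per2 held in 8 of 24 alternative settings (adjusted p up to 0.127) and that of Ciart in 12 of the 23 that tested it (up to 0.0970). Dbp was at 0.922 to 18.2 FPKM in saline livers and at 17.5 to 71.4 FPKM in cisplatin livers. The hour of sampling is not in the labels, and the part of the clock genes in the values of Klf9 was not tested.

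Dusp1, the phosphatase that turns off MAP kinases, is induced both by the hormone and by acute stimuli. Dusp1 (chromosome 17, 26505590 to 26562128, minus strand) was 11.9, 22.6, 33.6, 6.99 and 32.8 FPKM in saline 1 to 5. It was 5.27, 6.99, 5.96, 20.7 and 21.7 FPKM in cisplatin 1 to 5, and 15.3, 9.43, 6.63, 17.1 and 6.63 FPKM in doxorubicin 1 to 4 and the unnumbered library. The 3 highest values were saline libraries, but saline 4 lay among the lowest, so the groups overlapped. The differences from saline were -0.81 after cisplatin (-1.81 to 0.19, adjusted p = 0.305) and -0.80 after doxorubicin (-1.80 to 0.20, adjusted p = 0.215). Among 13 tested immediate early genes, a class that answers to many acute stimuli, 3 rose after doxorubicin (Btg2 by 1.64, Junb by 1.58 and Fos by 0.96). This was 23.1% of the list, beside 14.4% of all tested genes, and what raised these genes was not tested. Fos reached the filter only with the doxorubicin libraries, and without saline 4 the counts were 4 higher and 1 lower. After cisplatin Btg2 rose by 1.18 and Egr1 fell by 1.77, the last a call lost without any of saline 1, 4 and 5 or cisplatin 2 and 3 (adjusted p up to 0.0749). Dusp1 shares 11 exon bases with Ergic1 on the opposite strand, 0.332% of its exon bases, and no other member shares exon bases with another gene.

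**Figure D4:**
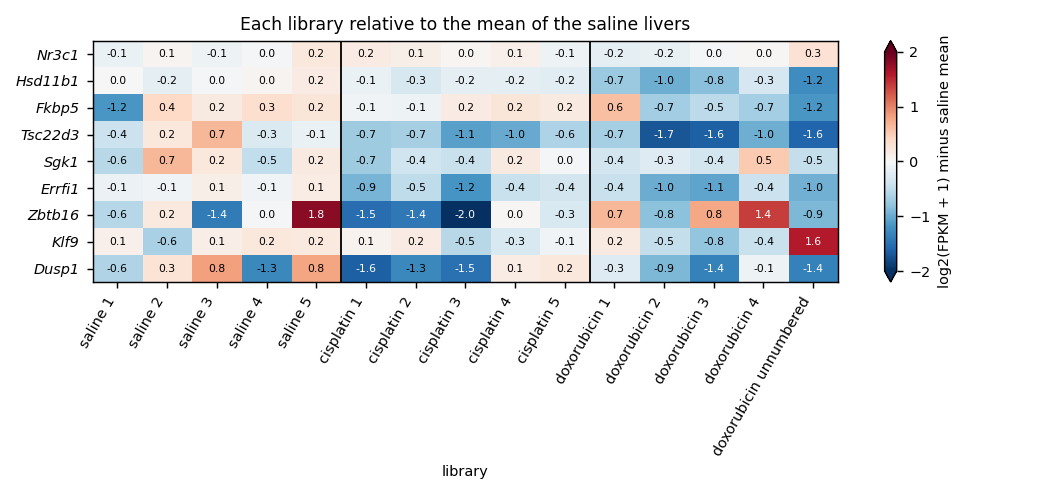
Level of each of the 9 genes in each library as log2(FPKM + 1) minus the mean of the saline livers (colour and printed value; blue lower, red higher). Errfi1 and Tsc22d3 are blue in every drug library, Hsd11b1 is bluest after doxorubicin, and Zbtb16, Dusp1 and Fkbp5 vary within groups, saline included.

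A wider list of 29 genes that glucocorticoids induce in liver or other tissues, without the members, moved mainly downward after both drugs. Of the 28 tested, 7 fell and 1 rose after cisplatin (25% and 3.57%, against 5% and 6.08% of all tested genes), with a median of -0.45. After doxorubicin 11 fell and 3 rose (39.3% and 10.7%, against 17.2% and 14.4%), with a median of -0.49. Of the 3 that rose, Rgs2 reached the filter only with the doxorubicin libraries, so the filter itself favoured it. Many of these genes are also known to answer to fasting, insulin or p53. Without cisplatin 3 the count after cisplatin was 3 lower and 1 higher, and without cisplatin 1 it was 4 lower and 1 higher.

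Angptl4, a lipase inhibitor of fasting, fell after both drugs in all 24 alternative settings. It was 145 to 223 FPKM in saline livers, 48.2 to 91.9 in cisplatin livers and 51.2 to 110.1 in doxorubicin livers, with no overlap with saline, and fell by 1.37 ± 0.21 (adjusted p = 0.000494) and 1.23 ± 0.21 (adjusted p = 0.000297). G6pc, the phosphatase that releases glucose from hepatocytes, was 94.1 to 365 FPKM after saline and 19.0 to 103.8 after doxorubicin, a fall of 2.06 ± 0.39 (adjusted p = 0.000861) in groups that overlapped. Its difference after cisplatin, -1.44, was lost without any of saline 2, 3 and 5 or cisplatin 1 and 3 (adjusted p up to 0.0808). Klf15, a transcription factor of amino acid breakdown, fell by 0.62 ± 0.11 after doxorubicin (adjusted p = 0.000454), with saline livers between 75.1 and 107 FPKM and doxorubicin livers between 51.8 and 71.2 FPKM. Pck1, which starts glucose synthesis, fell by 0.71 ± 0.19 after doxorubicin (adjusted p = 0.00946), and Lpin1, a phosphatase of lipid synthesis, fell by 1.71, both in all 24 settings; they, and Tat, the tyrosine aminotransferase long used as a marker of the hormone (-0.87, adjusted p = 0.0125), were picked from this list after their values were seen. Tat no longer passed (adjusted p = 0.0523) when saline 2 was left out together with the unnumbered library. Glul, the glutamine synthetase of hepatocytes around the central vein, fell by 0.62 ± 0.12 after cisplatin (adjusted p = 0.00350) and was 0.50 higher after doxorubicin than after cisplatin (adjusted p = 0.00806). Cebpd, a transcription factor of the acute phase, fell by 0.86 ± 0.20 after cisplatin (adjusted p = 0.0104).

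The gene that rose after both drugs was Cdkn1a, the p21 inhibitor of the cell cycle and a target of p53, by 1.44 ± 0.24 after cisplatin (adjusted p = 0.00117) and 2.35 ± 0.24 after doxorubicin (adjusted p = 2.79e-06). Its level was 7.89 to 25.3 FPKM in saline livers, 33.6 to 54.4 in cisplatin livers and 62.1 to 124 in doxorubicin livers, so that the groups did not overlap. Rhob and Rgs2, which act in small GTPase and G protein signalling, rose by 0.40 and 0.25 after doxorubicin. The call of Rhob was lost without saline 1 (adjusted p = 0.0522), and that of Rgs2, which reached the filter only with the doxorubicin libraries, in 14 of the 23 settings that tested it.

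**Figure D5:**
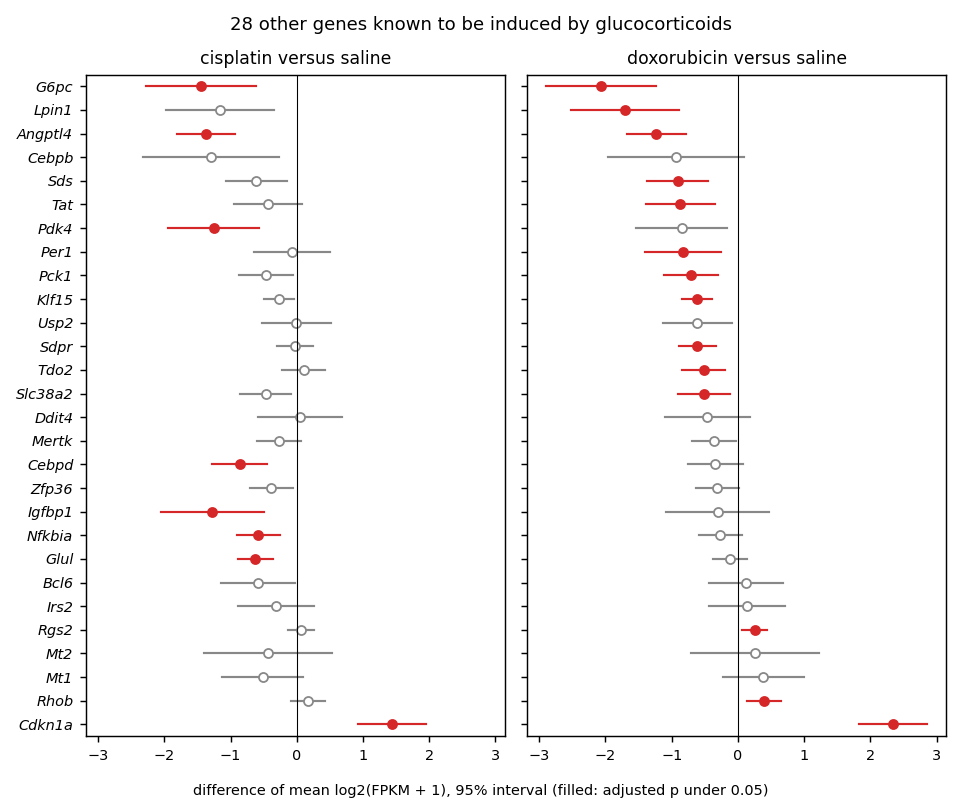
Differences of mean log2(FPKM + 1) from saline with 95% intervals for the 28 tested genes of the wider list, ordered by the doxorubicin difference; filled points passed an adjusted p of 0.05 in limma. Angptl4 and G6pc lie to the left in both panels and Cdkn1a to the right.

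Some inflammatory genes that glucocorticoids hold down were higher after doxorubicin. Of 9 such genes, 5 reached the filter, and Tnf, Il6, Ptgs2 and Nos2 were too low. Icam1 and Cxcl10 rose after doxorubicin relative to saline and to cisplatin. Ccl2 and Il1b were called in the same direction, but they reached 1 FPKM in 5 libraries only with the doxorubicin group, where they are high, so the filter itself favoured them and the number of calls in this list is not given as a result. After cisplatin 0 of the 5 passed the limma test. At an unadjusted limma p under 0.05, Ccl2 and Icam1 were higher after cisplatin (0.59, adjusted p = 0.0502, and 0.47, adjusted p = 0.0510). A pair of the 5 was called without cisplatin 2, with a pseudocount of 0.1 and with median-ratio scaling. A single gene was called on the TPM scale, in the fit limited to 2 groups and with a mean FPKM of at least 5. The same held without saline 2, alone or with the unnumbered doxorubicin library, and without any of doxorubicin 1, 2 and 3. Icam1, an adhesion molecule for leukocytes, was 5.06 to 9.51 FPKM in saline livers, 6.73 to 10.5 in cisplatin livers and 17.3 to 23.4 in doxorubicin livers, a rise of 1.503 ± 0.15 over saline (adjusted p = 1.89e-06). Ccl2, which attracts monocytes, rose by 1.84 ± 0.18 (adjusted p = 2.04e-06), with saline livers between 0.143 and 0.434 FPKM and doxorubicin livers between 1.91 and 5.19 FPKM. Cxcl10, a chemokine induced by interferon, rose by 1.48 ± 0.25 (adjusted p = 0.000323), and Il1b, chosen after its values were seen, rose by 0.70 ± 0.18 (adjusted p = 0.00585). The Il1b call against cisplatin (0.60, adjusted p = 0.0215) was lost without any of cisplatin 2 and 3 or doxorubicin 2 and 3 (adjusted p up to 0.0619). Vcam1, an endothelial adhesion molecule, differed by 0.17 (adjusted p = 0.215).

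Many markers of Kupffer cells, monocytes and neutrophils were also higher after doxorubicin, while markers of other blood and immune cells, given below, were not. All counts of markers are to be read beside the shares of all tested genes. These were 14.4% called higher and 17.2% called lower after doxorubicin, and 6.08% and 5% after cisplatin. After doxorubicin 6 of 9 tested Kupffer cell markers rose. Clec4f and Csf1r were not called, and their doxorubicin means were the lower ones. Clec4f averaged 23.4 FPKM in saline livers and 19.4 in doxorubicin livers, and Csf1r 5.75 and 5.24. The summed level of the listed Kupffer cell markers was 75.9 to 132 FPKM in saline livers, 86.0 to 119 in cisplatin livers and 154 to 254 in doxorubicin livers. The summed level of 8 monocyte markers was 17.1 to 37.4, 25.5 to 33.8 and 38.5 to 75.3 FPKM in the same order, and that of 8 neutrophil markers 4.63 to 8.72, 3.13 to 9.78 and 26.9 to 42.1 FPKM. All 5 tested monocyte markers were called higher after doxorubicin, but 2 of them, Ly6c2 and S100a4, reached the filter only with the doxorubicin libraries, and 3 were called without any of saline 3 and 5 or doxorubicin 3 and 4. All 3 tested neutrophil markers rose after doxorubicin. None of these 17 markers passed the limma test after cisplatin with all libraries, and at an unadjusted p under 0.05 Marco was higher and Clec4f lower; without saline 4, or without doxorubicin 2 or 4, 1 Kupffer cell marker was called.

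Other cell types were followed in the same way. Of 12 T and NK cell markers 3 were tested, and 0 differed from saline after either drug, also at an unadjusted limma p under 0.05, though 1 was called after doxorubicin without saline 1. All 3 tested B cell markers fell after doxorubicin. Of 9 sinusoidal endothelial markers, 2 fell after cisplatin (1 without any of saline 2, 3 and 5 or cisplatin 1 and 3), and 3 fell and 1 rose after doxorubicin. Of 5 tested erythroid markers, 4 fell after each drug. Stellate cell markers gave 1 fall of 8 after each drug, and cholangiocyte markers 1 rise of 4 tested, which after doxorubicin was lost without any of saline 1, 3, 4 and 5 or doxorubicin 2. The T and NK cell marker Gzma reached the filter only with the doxorubicin libraries. No listed marker in the table was at 0 in every library. The part of these cells in the values of the inflammatory genes, or of Tsc22d3, which immune cells also express, was not tested.

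Relatives of the members in the same families served as a comparison list, and 14 of 16 could be tested. After cisplatin Fkbp4 rose, and after doxorubicin Fkbp4 and Dusp6, a MAP kinase phosphatase, rose and Klf15 fell. These calls stand beside 6.08% of all tested genes called higher after cisplatin, and 14.4% higher and 17.2% lower after doxorubicin. Fkbp4 is also in the list of receptor partners and Klf15 in the wider list of induced genes, so they are not separate results. Dusp6 rose by 0.61 ± 0.19 (adjusted p = 0.0223), a call lost without any of saline 1 and 3 or doxorubicin 4 (adjusted p up to 0.0637). The list median was 0.05 after cisplatin and -0.10 after doxorubicin.

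The genes whose levels followed each member most closely were sought among all tested genes, by Pearson's r of log2(FPKM + 1) over the 15 libraries, which differ in group and depth. For Tsc22d3 they were Mdfic (r = 0.95), Slc37a4, the glucose phosphate transporter that works with G6pc (0.94), and Sult1d1 (0.93). For Hsd11b1 they included Tmem106b and Hebp1 (0.94 each), and for Errfi1 they were Prodh, the proline dehydrogenase (0.93), Slc1a2, a glutamate transporter (0.91), and Cdip1 (0.90). These members differ between the groups, and after subtracting group means the r values of these genes were 0.73 to 0.87. Nr3c1 was followed by Mcl1 (0.85), Sub1 (0.84) and 1110059G10Rik (0.82), Fkbp5 by Fgf1 (0.85), Susd6 (0.84) and Ubxn6 (0.83), and Sgk1 by Afap1l1 (0.90), Slc25a25 (0.86) and Cd55 (0.84). Zbtb16 was followed by Sat1 (0.87), Ier2 (0.83) and Gja1 (0.80), and Dusp1 by Sprtn (0.84), Mast3 (0.83) and Csrnp1 (0.81). For Klf9 the values of Dek (0.91), Hmgn5 (0.87) and Pabpc1 (0.85) rested on the extreme libraries: without doxorubicin 3 and the unnumbered library they were 0.72, 0.59 and 0.51. Without the 2 libraries farthest from the member's median, the r of the other 23 genes named here was 0.69 to 0.95. No member stood among the closest genes of another member.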

How the data were processed

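Poly(A)-selected liver mRNA of 15 mice was sequenced by the authors. Per the submitters' processing notes, reads were trimmed with Trim Galore 0.4.1, aligned with HISAT2 2.0.1 to GRCm38 (mm10) and counted with featureCounts 1.4.6, and edgeR was used; its version, the annotation release and the strand setting are not given in the sources used here. The authors deposited FPKM values for 21878 genes, and all 15 columns were used. FPKM divides by gene length and library total, so a change in a few abundant genes shifts all others. Library totals were recovered from the steps of 1 read in the FPKM values and GENCODE M21 exon lengths. Reads of each member were recovered with the length that gave whole reads, in place of its M21 exon length. These lengths differed from M21, for example 1346 against 4251 bases for Hsd11b1 and 6449 against 5283 for Zbtb16. The read counts of the members rest on these inferred lengths.

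The 10552 genes that reached 1 FPKM in 5 or more libraries were transformed to log2(FPKM + 1), which shrinks changes of low genes, and fitted with limma 3.58.1 in R 4.3.3 (3 groups, eBayes with trend and robust settings, two-sided, Benjamini-Hochberg over all tested genes, threshold 0.05). The script was tested on simulated data. Python 3.11.15, pandas 2.3.3 and matplotlib 3.10.9 were used for tables and figures.

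The 9 genes, 17 gene and marker lists and tests were chosen with earlier results of these data known. Named genes were the 9, at most 3 called genes per list, direction and comparison with the smallest adjusted p, and for each member the 3 genes with the highest r; exceptions are said in the text. Some results are not reported here. Marker lists are given by counts. The series' design note states that information on doxorubicin is missing from the samples, but the sample labels name the drug and its dose and were used. Replicate numbers of the labels do not state a shared litter, day or batch, and no batch is given. Alternatives were a pseudocount of 0.1, no filter, a mean FPKM of at least 5, TPM and median-ratio scaling, a fit limited to 2 groups, replicate numbers as a block, plain eBayes, the omission of each library in turn and, chosen after seeing the data, saline 2 and the unnumbered doxorubicin library left out together. Genome positions are from GENCODE M21 on GRCm38, and promoter windows are from RefSeq on GRCm38.p6.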

Additional observations from a re-analysis of the deposited data

Results flagged for a closer look

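In 6 of the 27 combinations of gene and group, 1 library lay so far from the other 4 that its gap to the nearest exceeded Dixon's critical value of 0.71 of the group's range. For normally distributed values chance gives about 1 in 20. The values here were FPKM without a log, and the combinations share the same libraries, so the number flagged cannot be weighed against that rate. For Fkbp5, saline 1 was lowest with 8.43 FPKM and doxorubicin 1 was highest with 31.0 FPKM. For Klf9, saline 2 was lowest with 11.4 FPKM and the unnumbered doxorubicin library was highest with 57.5 FPKM. For Sgk1, doxorubicin 4 was highest with 12.03 FPKM, and for Zbtb16, saline 5 was highest with 42.3 FPKM. Nr3c1, Hsd11b1, Tsc22d3, Errfi1 and Dusp1 had no such library.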

How the results depend on the processing

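Of 648 values of the members under the alternatives, 638 kept their call or lack of one. The calls of Hsd11b1 after doxorubicin against both groups, of Tsc22d3 after doxorubicin and of Errfi1 after both drugs held in all 24 settings each. Same-numbered libraries of different groups had deviations from their group means with r of -0.553 to 0.352 (13 pairs, 2 over 0.1). The deviations within a group are not free of each other, so these values do not decide whether the numbers pair the mice. With the replicate number as a block and the unnumbered library left out, 792 genes were called after cisplatin, 2168 after doxorubicin and 1262 between the drugs. Without the block and with all libraries they were 1170, 3335 and 2151. The block ended the cisplatin call of Tsc22d3 (adjusted p = 0.0836) and brought a call for Zbtb16 between the drugs (1.87, adjusted p = 0.0167). List genes whose doxorubicin calls it ended included Fkbp4 (adjusted p = 0.0633), Srd5a1 (0.0575), Tat (0.0905), Rhob (0.137) and Dusp6 (0.0536). Between the drugs they included Srd5a1 (0.0931), Cxcl10 (0.0535) and Il1b (0.0513). Without each library in turn the counts were 720 (without cisplatin 3) to 1241 after cisplatin, 2795 to 3461 after doxorubicin and 1734 to 2706 between the drugs. The difference of Klf9 after doxorubicin turned from 0.01 to -0.54 without saline 2 and the unnumbered library. The causes were not tested. By read counts that rest on inferred gene lengths, each member had at least 284 reads in every library, and what limits detection was not tested.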

Other observations

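Clock genes, several of which glucocorticoids also time, differed between the drugs: of 14 tested, 7 were lower and 1 was higher after doxorubicin than after cisplatin, beside 11.4% and 9% of all tested genes, and Hlf and Per1 were lower after doxorubicin than after saline, the latter a call lost without any of saline 2 and 5 or doxorubicin 2 and 3 (adjusted p up to 0.0821). Dbp, a clock output factor, was 17.5 to 71.4 FPKM in cisplatin livers and 2.51 to 5.24 FPKM in doxorubicin livers, with no overlap (-2.88 ± 0.53, limma adjusted p = 0.00150). Per3, a period gene, was lower by the same comparison (-1.41 ± 0.34, adjusted p = 0.00681), and Nfil3, a repressor of Dbp targets, was higher (0.83 ± 0.17, adjusted p = 0.00275). Hlf, a relative of Dbp, was lower after doxorubicin than after saline, at 6.67 to 8.72 FPKM against 9.503 to 13.4 FPKM (-0.52 ± 0.10, adjusted p = 0.00113). Whether the groups were sampled at the same hour is not in the labels and was not tested.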
